A study of Mus musculus with 661 samples.

Results

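Ebf1, Ebf2, Ebf3 and Ebf4 encode the early B cell factors, a small family of DNA-binding proteins with a helix-loop-helix dimerisation domain, and Foxc1 and Foxc2 encode a closely related pair of forkhead proteins. These 6 genes were taken by symbol from the 45771 nuclear genes counted in single cells of mouse bone and bone marrow stroma, and all 6 were present in the table. The question addressed was in which stromal and endothelial populations each factor was measured, in which cells the factors occurred together, and how their levels compared between ages.

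The study sorted non-hematopoietic niche cells from C57BL/6 wild-type mice, either young adult (Young) or aged (Old), and sequenced each cell with a plate-based full-length protocol derived from Smart-Seq2. From the endosteum, the lining of the bone, came MSC-S (CD31- Sca-1+ CD51+ mesenchymal cells), OPr (PDGFRα- LepR- osteoprogenitors), mOPr (PDGFRα+ LepR- osteoprogenitors) and AEC (CD31+ Sca-1 high CD105 low arteriolar endothelial cells). From the central marrow came MSC-L (Sca-1- CD51+ PDGFRα+ LepR+ mesenchymal cells) and SEC (CD31+ Sca-1 low CD105 high sinusoidal endothelial cells). Each of these 6 populations was sorted at both ages, which gave 12 groups.

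MSC-L comprised 53 young and 58 old cells, and MSC-S 59 and 59. OPr comprised 44 young and 29 old cells, and mOPr 26 and 26. AEC comprised 84 young and 82 old cells, and SEC 70 and 71. The labels name no mouse for a cell, so each group counted as 1 sample and no difference between groups was tested. A cell held between 57517 and 1488549 counts on nuclear genes, with a median of 416359. Group medians ran from 302201 in old SEC to 775426 in old OPr. Levels are given in CPM, the counts of a gene summed over a group and scaled to the total of its nuclear counts, with an exact 95% Poisson interval in parentheses. The reads carry no molecular identifiers, so every interval and binomial limit covers counting error only. Sample titles carry numbers that fall into 3 separate ranges, used here as possible batches; MSC and osteoprogenitor cells came from ranges 1 and 2, SEC from range 3 alone and AEC from all 3.

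EBF1 is best known for committing blood progenitors to the B lineage, but members of the family also act in bone, fat and nerve. In marrow stroma, deletion studies in mice have linked EBF1, EBF3 and FOXC1 to the reticular cells that make the chemokine CXCL12 and stem cell factor, the cells that the LepR gate collects. FOXC1 and FOXC2 are also known for their part in vessel growth, arterial specification and the shaping of the skeleton, while EBF2 is known from brown fat and early osteolineage cells.

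In GRCm38 Ebf1 lies at chr11:44617317-45008091 on the plus strand, Ebf2 at chr14:67233292-67430918 on the plus strand, Ebf3 at chr7:137193673-137314445 on the minus strand and Ebf4 at chr2:130295169-130370481 on the plus strand. Foxc1 lies at chr13:31806633-31812476 and Foxc2 at chr8:121116171-121118895, both on the plus strand. Counting did not use strand, so reads of a gene and of an antisense neighbour cannot be told apart. The antisense gene Gm12158 overlaps Ebf1 and had 6579 counts against 112912 for Ebf1. Of 5 opposite-strand genes inside Ebf2, the highest was Gm6878 with 1152 counts against 9133 for Ebf2. Gm45278 and Gm10578 lie opposite Ebf3, and their counts were not analysed here. Gm20388 overlaps Foxc2 on the same strand and had 0 counts, so reads shared by the pair may be missing from Foxc2. Foxc1 and Foxc2 share 4 stretches of 50 bases in their transcripts, and no other pair of the 6 shares any.

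The labels were checked against marker genes. The 7 MSC-L markers summed to 67255 CPM in young and 53383 CPM in old MSC-L, with all 7 at 10 CPM or more and Cxcl12 the most abundant at 48750 and 39599 CPM. In MSC-S the same markers summed to 643.6 CPM in young and 1309.9 CPM in old cells. The 7 MSC-S markers summed to 3103 and 3495 CPM in young and old MSC-S, led by Ly6a, the gene for Sca-1. The 10 endothelial markers summed to between 10098 and 13262 CPM in the AEC and SEC groups and to at most 76.01 CPM in a mesenchymal group. SEC were led by Stab2, a sinusoidal scavenger receptor, at 7177 CPM in young and 5875 CPM in old cells. The osteoprogenitor gates were less uniform: MSC-L markers summed to 26518 CPM in old OPr and 23722 CPM in old mOPr, against 6538 and 1065 CPM in the young groups. Old OPr also carried blood transcripts, with 12 of 15 hematopoietic markers at 10 CPM or more, a sum of 9682 CPM led by S100a9 at 4041 CPM, and Mpo and Elane at 0. No other group exceeded 350.8 CPM on that list. B lineage markers, in view of the name of the EBF family, summed to at most 283 CPM outside old OPr, where the sum of 1829 CPM came almost wholly from Cd74, an antigen presentation gene, at 1799.98 CPM. Cd79b, Igll1 and Ms4a1 were at 0 in old OPr and in both ages of MSC-L and MSC-S, and no cell held more than 2 of the 12 at 10 CPM. Mesenchymal markers were present in the SEC gate, with a sum of 6595 CPM in young and 4211 CPM in old cells and 7 and 9 of 10 at 10 CPM or more.

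Ebf3 was highest in MSC-L at both ages. Its level was 1139 CPM (1125 to 1153) in young MSC-L and 1154 CPM (1139 to 1169) in old MSC-L. Single young MSC-L cells ran from 0 to 2966 CPM with a median of 1039, and old ones from 0 to 4854 CPM with a median of 977. Nearly every cell of the gate therefore carried the transcript, with a count in 52 of 53 young and 57 of 58 old cells. Old OPr followed at 468 CPM (459 to 477), old mOPr at 259 CPM (250.3 to 268) and young OPr at 184 CPM (179 to 188), but their median cells held 2.16, 72.6 and 0 CPM. Ebf3 was thus uneven within these gates. In young OPr 16 of 44 cells had a count and 1 cell supplied 40.2% of the counts, while 17 of 26 old mOPr cells had one. Among endothelial groups Ebf3 stood at 139 CPM in old SEC, 124 CPM in young SEC, 82.9 CPM in young AEC and 43.4 CPM in old AEC. The lowest levels were 35.4 CPM in young mOPr, 28.7 CPM in young MSC-S and 15.8 CPM in old MSC-S. In this order only the 2 MSC-L groups had overlapping intervals.

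Ebf1 was also highest in MSC-L but more widespread, with 703 CPM (692 to 715) among the old MSC-L and 685 CPM (674 to 696) among the young. Median cells held 640.1 CPM in old and 613 CPM in young MSC-L, with lowest cells at 0 and highest at 2119 and 1839 CPM. Young MSC-S followed at 487 CPM (480.1 to 495), then AEC at 411 CPM (405 to 418) in young and 405 CPM (399 to 412) in old cells. Old OPr stood at 383 CPM, old mOPr at 342 CPM and old MSC-S at 335 CPM. Ebf1 was thus spread over several mesenchymal gates and the arteriolar gate, with a count in 56 of 59 young MSC-S, 76 of 84 young AEC and 24 of 26 old mOPr. In young OPr it was uneven, with a count in 23 of 44 cells, a median cell of 1.05 CPM and 33.9% of the counts in 1 cell. The low end held young OPr at 193 CPM, old SEC at 174 CPM, young mOPr at 135 CPM and young SEC at 67.9 CPM, where 21 of 70 cells had a count. Intervals overlapped between old and young MSC-L, between young and old AEC, and between old mOPr and old MSC-S, and between no other neighbours.

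Foxc1 reached 327 CPM (319.6 to 334) in young MSC-L, where cells ran from 0 to 2191 CPM with a median of 217 and 52 of 53 had a count. Old MSC-L held 266 CPM (258 to 273), with a median of 177 and a highest cell of 1262 CPM. Both osteoprogenitor gates came next, with 252 CPM in old mOPr, 208 CPM in old OPr, 199 CPM in young mOPr and 183 CPM in young OPr. Summed by gate, Foxc1 was thus highest in MSC-L and the osteoprogenitor gates, and lower in MSC-S and endothelium. Old MSC-S held 103 CPM, young SEC 81.5 CPM, old AEC 72.2 CPM, young MSC-S 61.1 CPM, young AEC 38.7 CPM and old SEC 37.9 CPM. Neighbours with overlapping intervals were old MSC-L and old mOPr, old OPr and young mOPr, and young AEC and old SEC.

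Ebf2 had its highest levels in MSC-S, with 95.7 CPM (92.7 to 98.8) among the old and 65.0 CPM (62.3 to 67.7) among the young. About as many cells had it as lacked it, with a count in 30 of 59 young and 32 of 59 old MSC-S and highest cells of 507 and 526 CPM. Old mOPr stood at 63.1 CPM, within counting error of young MSC-S, although only 7 of 26 cells had a count. Young MSC-L and young mOPr followed at 26.4 and 25.1 CPM, with overlapping intervals. Young AEC, old AEC, old OPr and old SEC formed a chain of overlapping neighbours at 12.5, 12.0, 9.87 and 7.96 CPM. Of the old AEC counts 65.7% came from 1 cell. Old MSC-L at 3.33 CPM and young SEC at 3.28 CPM also overlapped, and young OPr was lowest at 0.511 CPM.

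Foxc2 was sparse in every group. It was highest in old mOPr at 76.8 CPM (72.0 to 81.8), where 7 of 26 cells had a count and 1 cell supplied 69.3% of them. Young MSC-L held 40.4 CPM, old MSC-S 35.8 CPM, young mOPr 35.5 CPM and old AEC 30.8 CPM, and the intervals of the last 3 overlapped in turn. Young OPr, old SEC and young AEC stood at 22.8, 20.5 and 20.2 CPM with overlapping intervals. Young MSC-S, young SEC and old OPr overlapped at 12.1, 11.2 and 11.1 CPM, and old MSC-L was lowest at 5.54 CPM. Median cells were at 0 in all 12 groups.

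Ebf4, the least studied member of its family, was low in every group and highest in mOPr. It stood at 36.04 CPM in the old mOPr group and 12.5 CPM in the young, from 4 of 26 and 6 of 26 cells, and 1 cell supplied 47.3% of the old and 50.3% of the young counts. Young SEC held 6.38 CPM and the remaining groups at most 3.21 CPM. Old MSC-S had no count in 59 cells, where 3 counts would have been 0.0766 CPM.

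**Figure D1:**
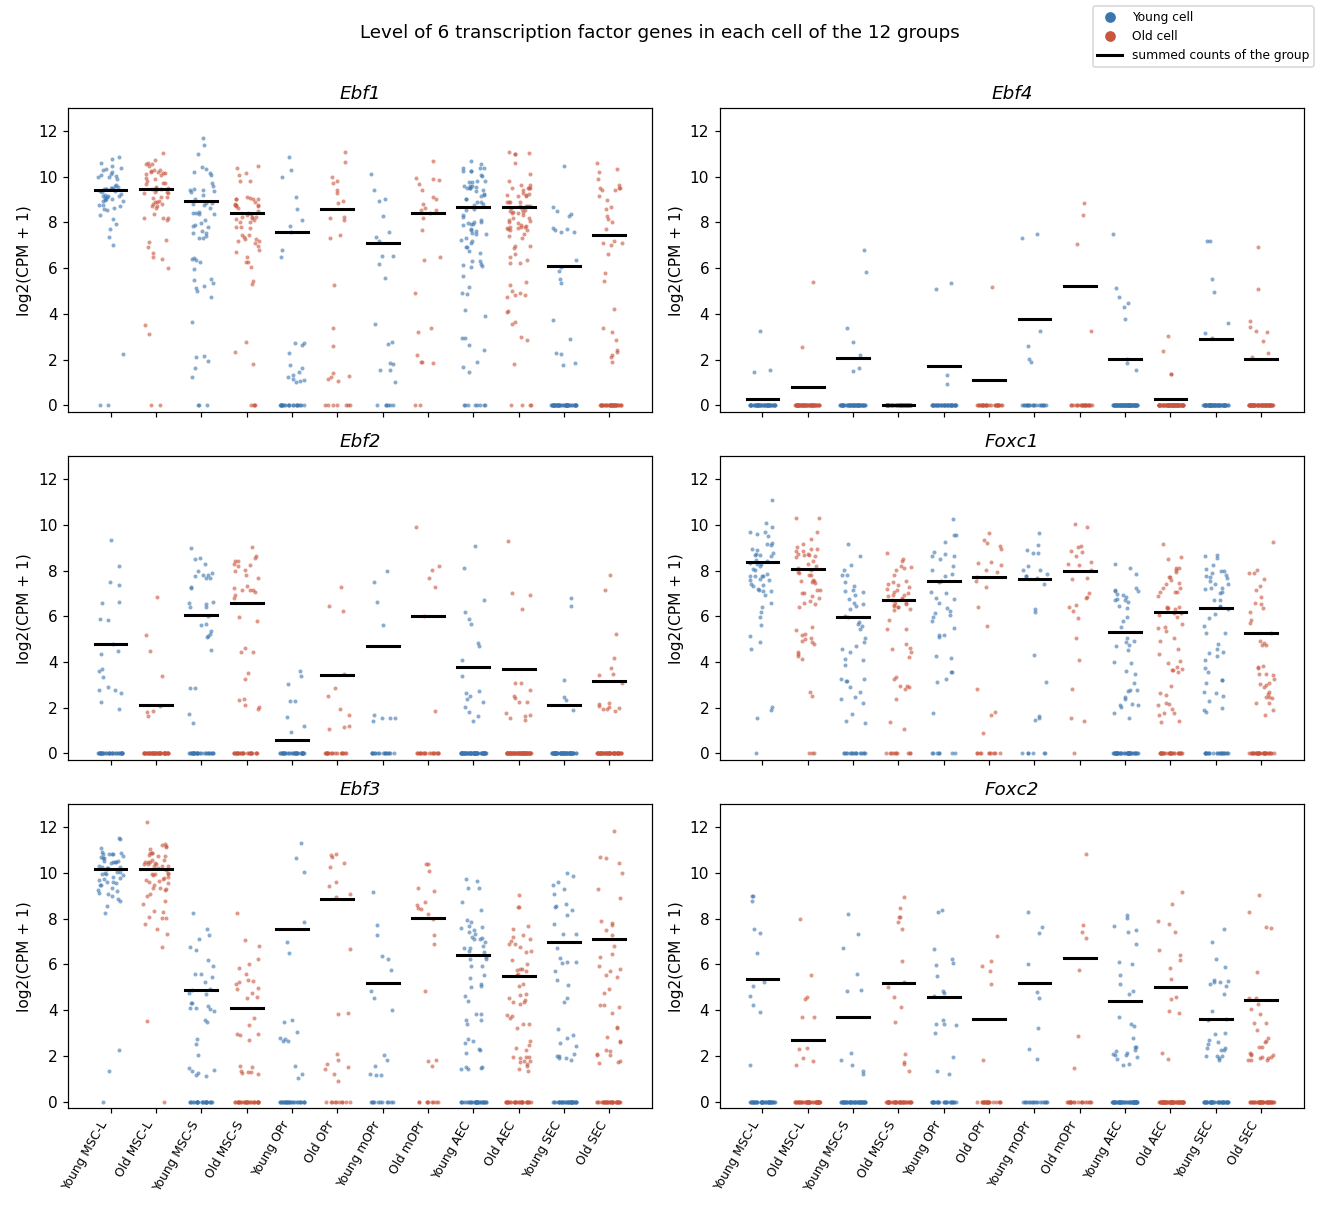
Level of each gene in single cells, as log2(CPM + 1) on the vertical axis, for the 12 groups of population and age on the horizontal axis, with young cells in blue, old cells in red and a black bar for the summed counts of the group. Ebf3 cells crowd near the top in MSC-L, around a summed level of 1139 CPM in young and 1154 CPM in old cells, and near 0 in MSC-S, around 28.7 and 15.8 CPM.

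Divided by exon length, the order of the genes differed between populations. In young MSC-L the level per kilobase was highest for Ebf3 at 123 CPM per kb, followed by Ebf1 at 70.2 and Foxc1 at 55.95 CPM per kb. Foxc2, Ebf2 and Ebf4 stood at 14.8, 3.81 and 0.0678 CPM per kb. In young MSC-S Ebf1 led at 49.96 CPM per kb, before Foxc1 at 10.5, Ebf2 at 9.38 and Foxc2 at 4.44 CPM per kb, and Ebf3 at 3.11 CPM per kb stood above Ebf4 alone. Young AEC had a similar lead of Ebf1 at 42.2 CPM per kb, with Ebf3 next at 8.99 CPM per kb. Young SEC differed from young AEC in that Foxc1 at 14.0 and Ebf3 at 13.4 CPM per kb stood above Ebf1 at 6.96 CPM per kb.

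The LepR+ marrow MSC and the Sca-1+ endosteal MSC differed most in Ebf3. On the log2(CPM + 1) scale young MSC-L exceeded young MSC-S by 5.26 for Ebf3, a 39.6-fold ratio, by 2.40 (5.35-fold) for Foxc1 and by 1.66 (3.34-fold) for Foxc2. Ebf1 differed by 0.49, with a ratio of 1.40-fold. Here and below a fold is the ratio of CPM without the pseudocount, so for low levels it is larger than the log2 value implies. Ebf2 went the other way at −1.27, and Ebf4 at −1.79 rested on 5 counts in MSC-L and 111 in MSC-S. The difference in Ebf3 was 4.51 in range 1 and 5.88 in range 2. That of Foxc1 was 2.97 and 2.21, and that of Ebf1 0.27 and 0.64. Ebf2 was −1.96 in range 1 and −0.64 in range 2, Foxc2 3.68 and 1.52, and the sign of Ebf4 turned in range 1, at 0.040. With cells grouped by MSC-L-like and MSC-S-like clusters in place of gates, Foxc1 stood at 1.62, and Foxc2 at 0.89, under 2-fold. A gene was compared with others where the pair of groups held 100 counts or more of it, spread over 5 cells or more. Of 13645 such genes, 45.5% differed by 2-fold or more and 28.8% were at least 2-fold higher in MSC-L. Of the 6 factors, 3 were at least 2-fold higher in MSC-L (Ebf3, Foxc1 and Foxc2) and 2 lower (Ebf2 and Ebf4). The calls of Ebf2, Ebf4 and Foxc2 each ended under an alternative, since Ebf4 stood at −0.96 without the cell holding the most counts in each group. Scaling by median-of-ratios size factors in place of total counts shifted all values of this pair by −0.30.

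Between the old groups Ebf3 was higher in MSC-L by 6.10 (72.9-fold), with 5.78 in range 1 and 6.22 in range 2. Foxc1 was higher by 1.35, with 1.90 and 1.31 in the ranges, and Ebf1 by 1.07. Ebf1 stood at 0.70 and Foxc1 at 0.99 with size factors, both under 2-fold. Ebf2 stood at −4.48 and Foxc2 at −2.49, and at −3.61 and −1.41 by clusters. The value of Foxc2 had opposite signs in the ranges, with 1.69 in range 1 and −4.50 in range 2. Ebf3 and Foxc1 thus separated the gates in the same direction at both ages, and Foxc2 did not.

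Genes of the marrow niche accompanied this difference. All 10 genes of a niche factor list were at least 2-fold higher in young MSC-L than in young MSC-S, with a median log2 ratio of 4.80 against 0.32 over all genes past the filter. Of these Cxcl12, Kitl, Lepr, Adipoq and Vcam1 are also MSC-L markers, so their direction is not independent of the gate. Cxcl12, the chemokine that retains hematopoietic stem cells, stood at 7.36, Kitl, the gene for stem cell factor, at 6.50 and Lepr, the leptin receptor of the gate, at 4.82. Of 12 osteoblast genes past the filter 8 were higher and 3 lower, with a median of 2.18, and the transcription factors Runx2 and Sp7 stood at 4.39 and 4.77. Of 8 adipogenic genes 5 were higher and 2 lower, with a median of 3.10, and Pparg and Cebpa, master regulators of fat cells, stood at 3.70 and 3.03. A list of stromal transcription factors, which shares Runx2, Sp7 and Dlx5 with the osteoblast list, had 6 higher and 6 lower of 19 and a median of −0.17. Of 11 other forkhead genes 3 were higher and 4 lower, with a median of 0.11, and Foxo1 stood at −2.27. Of 7 genes for known partners of EBF proteins 2 were higher and 1 lower, with a median of 0.69, and Runx1 stood at 1.90.

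Within MSC-L, Ebf1 and Ebf3 stood at nearly the same level at both ages. The old over young log2 ratio was 0.039 (0.0059 to 0.072) for Ebf1 and 0.019 (−0.0068 to 0.045) for Ebf3, where the interval is an exact conditional binomial one for the ratio without pseudocount. Ebf3 was not separable between the ages by counting error, and its ranges gave 0.21 and −0.091. Those of Ebf1 gave −0.052 and 0.097. Foxc1 was lower in old MSC-L at −0.30 (−0.35 to −0.25), with −0.48 and −0.23 in the ranges. Between young and old cells of the MSC-L-like clusters, whatever their gate, the sign of Foxc1 turned at 0.099, and Ebf1, Ebf3, Ebf2 and Foxc2 stood at −0.20, −0.26, −1.66 and −1.35. By gate Ebf2 stood at −2.66, a 7.92-fold lower CPM, with −2.02 in range 1 and −3.21 in range 2, and 8 of 58 old against 20 of 53 young cells had a count. Foxc2 also stood at −2.66, but with −0.023 in range 1 and −4.74 in range 2. Ebf4 rested on 5 counts in young MSC-L and 14 in old. Of 13143 genes past the filter 25.4% differed by 2-fold or more between the ages, and of the 5 factors past it Ebf2 and Foxc2 did so, both lower in old cells.

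The niche factor genes gave a similar picture in MSC-L, since none of the 10 differed 2-fold between the ages and their median was −0.051 against 0.014 over all genes. Cxcl12 stood at −0.30 and Adipoq at −0.90. Of 11 osteoblast genes none was higher and 1, Ibsp, lower, with a median of −0.0066. Among 7 EBF partner genes Tcf3, an E protein, was lower at −1.20, and the median was 0.087. Of 10 other forkhead genes 3 were higher, with a median of 0.46, Foxf2 at 1.61 and Foxd2 at 2.03.

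In MSC-S the old over young log2 ratio was −0.54 for Ebf1 and −0.82 for Ebf3, with −0.31 and −0.57 and with −1.06 and −0.43 in ranges 1 and 2. Foxc1 stood at 0.75, with 0.59 and 0.67 in the ranges, and Foxc2 at 1.49, with 1.97 and 1.28. Foxc1 and Foxc2 were thus higher and Ebf1 and Ebf3 lower in old MSC-S within each range, but Foxc2 in range 1 rested on 35 old and 2 young counts. By MSC-S-like clusters Foxc1 stood at 0.18 and Foxc2 at 0.95, under 2-fold. The gate held different clusters at the ages, with M9 in 10 old and no young cells, M15 in 5 young and no old cells and M16 in 14 young and 21 old cells. Old cells of M9 held 2128 of the 3750 Ebf2 counts of the old gate, and old M16 cells 1370 of its 1403 Foxc2 counts. Ebf2 stood at 0.55, with −0.16 in range 1 and 1.20 in range 2. Ebf4 had 111 counts in young cells and none in old ones. With old cells set at a floor of 3 counts over the group, it was 42.0-fold lower. The interval of its log2 ratio ended at −5.07. Of the young counts 65.8% came from 1 cell. In range 1, with 4 counts in young cells, the same floor gave 1.08-fold, and the interval ended above 0, at 0.90. Without the top cell the log2 difference was −1.09 in place of −2.07. Of 13381 genes past the filter 19.7% differed by 2-fold or more, and of the 6 factors Foxc2 was higher and Ebf4 lower by that measure.

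Genes of other lineages also differed between young and old MSC-S. Of 10 osteoblast genes 1 was at least 2-fold higher and 4 lower in old cells, with a median of −0.75 against −0.056 over all genes, and Spp1, the gene for osteopontin, stood at −5.04 and Ibsp at −1.90. The 8 osteolineage markers, which share these genes, summed to 3137 CPM in young and 1353 CPM in old MSC-S, with 5 at 10 CPM or more at each age, led by Col1a1, and none at 0. Of 8 adipogenic genes none was higher and 4 were lower, with a median of −0.72, and Adipoq stood at −4.51. The niche factor genes were divided, with 4 higher and 3 lower of 10 and a median of 0.56, Cxcl12 at 1.51 and Angpt1, the gene for angiopoietin 1, at −2.30. Their part in the ratios of the 6 factors was not tested.

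In both osteoprogenitor gates Ebf1 and Ebf3 were higher in old cells. In mOPr the log2 ratio was 2.84 (2.74 to 3.01) for Ebf3, a 7.31-fold ratio, and 1.34 (1.27 to 1.42) for Ebf1. Range 1 and range 2 gave 2.56 and 3.48 for Ebf3 and 1.53 and 1.31 for Ebf1. In OPr the log2 ratio was 1.35 (1.30 to 1.40) for Ebf3, with 0.81 and 5.33 in the ranges, and 0.98 for Ebf1, with 0.63 and 2.47. Foxc1 stood at 0.34 in mOPr and 0.19 in OPr, and in OPr the ranges had opposite signs at 0.89 and −0.39. Ebf2 stood at 2.85 in OPr, from 211 counts in old and 15 in young cells, where 1 cell held 57.3% of the old counts, and the ratio without the top cells was 1.96. It stood at 1.30 in mOPr, with 4.78 in range 1 and −1.13 in range 2. Foxc2 stood at 1.09 in mOPr and 0.28 there without the cell holding the most counts in each group, and at −0.97 in OPr. Among OPr-like clusters Foxc1 stood at −1.20 and Foxc2 at 0.75, where 1 cell of the mOPr gate held 80.2% of the old Foxc2 counts. Ebf4 stood at 1.45 in mOPr and −0.63 in OPr, and turned to 2.04 among OPr-like clusters. Of 13418 genes past the filter in OPr 45.2% differed by 2-fold or more and 25.6% were higher in old cells, and of 5 factors Ebf2 and Ebf3 were higher. Of 11237 genes in mOPr 44.5% differed and 24.7% were higher, and 5 of the 6 factors were higher, all but Foxc1. Size factors shifted the values by −0.17 in OPr and −0.13 in mOPr.

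Both gates held cells of the MSC-L type. The authors' clusters M1 and M2, the MSC-L-like clusters, held 51 of 53 young and 56 of 58 old MSC-L, but also 3 of 44 young and 10 of 29 old OPr and 2 of 26 young and 14 of 26 old mOPr. Without these cells, an alternative chosen after seeing the data, Ebf3 stood at 13.1 CPM in young and 2.55 CPM in old OPr, and at 19.3 CPM in young and 2.20 CPM in old mOPr. The direction of Ebf3 was then reversed in both gates, at −1.99 in OPr and −2.67 in mOPr, and it was −1.62 among cells of the OPr-like clusters. Ebf3 was a guide gene of that clustering, so removing M1 and M2 also removes cells by their Ebf3 level, and these values are a description. Ebf1 outside M1 and M2 was 123 CPM in young and 85.6 CPM in old mOPr, a log2 ratio of −0.51. In OPr it was 57.8 CPM in young and 157 CPM in old cells, of which 1 cell supplied 62.9%. Foxc1 was 179.7 CPM in young and 94.4 CPM in old OPr, and 204 and 87.6 CPM in mOPr. The M1 and M2 cells of old OPr held Ebf3 at 1038 CPM and Ebf1 at 659 CPM. Those of old mOPr held Ebf1 at 573 CPM, and Ebf3 at 490.3 CPM, below its level in old MSC-L.

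Markers of pericytes and smooth muscle were also higher in the old gates. The 10 summed to 545 CPM in young and 2533 CPM in old mOPr, with 5 and 8 at 10 CPM or more, and to 809.9 and 2688 CPM in OPr, with 5 and 7. Acta2, smooth muscle actin, led in old cells at 1146 CPM in mOPr and 1327 CPM in OPr, and of this list Rgs5 was at 0 in young mOPr and Kcnj8 in young OPr. Their part in the ratios, that of Ebf2 included, was not tested.

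Niche and fat genes were higher in the old gates as well. In mOPr 9 of 10 niche factor genes were at least 2-fold higher and none lower, with a median of 3.04 against 0.11 over all genes, and Cxcl12 stood at 5.07 and Kitl at 5.29. All 7 adipogenic genes past the filter were higher, with a median of 3.49. Pparg stood at 4.12, from 220 counts in old and 1 in young cells. Other forkhead genes were lower in 5 of 11 cases, with a median of −0.55, Foxo1 at −1.68 and Foxp1 at −1.71. Of 7 EBF partner genes 1 was higher and 2 lower, with a median of −0.34, and Zfp521 stood at −2.92. Of 13 osteoblast genes 4 were higher and 3 lower, with a median of 0.47. In OPr 9 of 10 niche factor genes were higher with a median of 1.71, while of 13 osteoblast genes 3 were higher and 5 lower with a median of −0.58. Of 7 adipogenic genes 5 were higher with a median of 1.53, and the median over all genes was 0.14. Their part, and that of the 8 old OPr cells with at least 7 hematopoietic markers at 10 CPM, in the ratios of Ebf and Foxc genes was not tested beyond leaving cells out.

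Arteriolar and sinusoidal endothelium were compared within range 3, which holds 24 young AEC and 70 young SEC. Ebf1 was higher in young AEC, with 342 CPM against 67.9 CPM, a log2 difference of 2.31 and 5.03-fold. Foxc1 stood at −2.58, with 12.8 CPM in AEC and 81.5 CPM in SEC. Ebf1 and Foxc1 thus lay on opposite sides of this pair in young cells. Ebf2 stood at 3.31, with a CPM ratio of 12.6-fold, but 60.4% of its AEC counts came from 1 cell, and it stood at 0.51 without the cells of the pericyte cluster E2. Ebf3 stood at −0.73, with 74.5 CPM in AEC and 124 CPM in SEC, and turned to 1.14 without the cells of E1, which the study treats as doublets, and to 0.69 without cells bearing markers of both lineages. Without E1 Ebf1 stood at 4.93. The E1 and E2 alternatives were chosen after seeing the data. Ebf4 at 0.36 and Foxc2 at 0.30 turned to −1.89 and −1.75 without the cell holding the most counts in each group. Size factors shifted values of the young pair by −0.17. Of 11908 genes past the filter 42.2% differed by 2-fold or more. Of the 6 factors Ebf1 and Ebf2 were higher and Foxc1 lower in AEC. The call of Ebf2 ended without E2, and that of Foxc1 ended by clusters. Between 23 old AEC and 71 old SEC of the same range the values were 0.93 for Ebf1, 0.49 for Ebf2 and −1.44 for Ebf3. Foxc1 had the other sign at 0.95, with 74.3 CPM in AEC and 37.9 CPM in SEC, and Foxc2 stood at −4.03. Ebf4 had no count in these old AEC and 63 in SEC. With AEC set at a floor of 3 counts over the group, it was 6.45-fold lower than in SEC. The interval of its log2 ratio ended at −2.35. By AEC-like and SEC-like clusters Foxc2 turned to 1.06 and Ebf4 to 1.56. Over all old AEC-like cells 1 cell of the SEC gate held 88.1% of the Ebf4 counts. Ebf2 turned to −1.60 without E2 cells. Of 10 endothelial genes linked to Foxc factors 5 were higher and 1, Flt4, lower in young AEC, with a median of 1.38 against −0.10 over all genes. Of these 6, Hey1 at 5.29 and Efnb2 at 3.67 are also AEC markers and Flt4 is a SEC marker, so their direction is not independent of the populations. The others were Itgb3, Prox1 and Dll4, a Notch ligand of arteries, which stood at 2.51. Mesenchymal genes were on the SEC side of the young pair. Of 10 niche factor genes 9 were lower in AEC and 1, Kitl, higher, with a median of −2.65, Cxcl12 at −1.71 and Lepr at −4.19. Of 7 osteoblast genes 6 were lower and 1, Alpl, higher, with a median of −2.31, and of 8 adipogenic genes 5 were lower and 2 higher, with a median of −1.32. Foxc1 and Ebf3 had the same direction as these lists. Foxc1 stood at −2.34 without E1 and also without the cells bearing markers of both lineages, and the sign of Ebf3 turned under each. The part of the mesenchymal genes in the values of Foxc1 and Ebf3 was not tested beyond leaving these cells out.

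In SEC, sampled from range 3 only, Ebf1 was 2.55-fold higher in old cells, a log2 ratio of 1.34 (1.26 to 1.44). Foxc1 was 2.15-fold lower at −1.09 (−1.23 to −0.98). Ebf2 stood at 1.06, Foxc2 at 0.82, Ebf3 at 0.16 and Ebf4 at −0.87. Of 12982 genes past the filter 20.7% differed by 2-fold or more, and of the 6 factors Ebf1 and Ebf2 were higher and Foxc1 lower in old cells. Among 11 endothelial genes linked to Foxc factors 5 were higher and none lower, with a median of 0.74 against 0.055 over all genes, and Dll4 stood at 1.16, and Hey1 and Efnb2, both also AEC markers, at 4.33 and 2.46. Niche factor genes had none higher and 3 lower of 10, with a median of −0.64, and the lower ones were Lepr, Adipoq and Igfbp5. In the same gate the 8 AEC markers summed to 336 CPM in young and 1376 CPM in old cells, with 4 and 7 at 10 CPM or more, led by Ly6a. The 7 MSC-L markers summed to 10755 and 6557 CPM, all 7 at 10 CPM or more and led by Cxcl12, and none of either list was at 0. The 8 osteolineage markers summed to 1227 and 497 CPM, with 3 and 5 at 10 CPM or more, led by Ibsp in young and Spp1 in old cells, and Bglap at 0 at both ages. Of 8 osteoblast genes 2 were higher and 1 lower, with a median of 0.23. Their part in the values of these lists and of the 6 factors was not tested.

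The SEC gate was not a single kind of cell. Cluster E1, the doublets, held 9 young and 4 old SEC, and its 14 cells had Ebf3 at 641 CPM, Ebf1 at 482 CPM and Foxc1 at 146 CPM. Without E1, again an alternative chosen after seeing the data, Ebf1 stood at 10.3 CPM in young and 153 CPM in old SEC, a log2 ratio of 3.77. Ebf3 stood at 33.3 and 106 CPM, a ratio of 1.65, and Foxc1 at 69.02 and 29.9 CPM, a ratio of −1.18. Ebf1 and Ebf2 were guide genes of the endothelial clustering, so levels within its clusters are a description too. The SEC-like cluster E7 held 59 young and 44 old SEC. Within it Ebf1 was 5.22 CPM in young and 49.1 CPM in old cells, 44.3% of the latter from 1 cell, and Foxc1 was 71.4 and 27.8 CPM. A further 23 old SEC lay outside E1 and E7, against 2 young ones, and held Ebf1 at 359.9 CPM. By SEC-like clusters in place of the gate the signs of Ebf2 and Foxc2 turned, at −0.60 and −0.65. Of the young SEC-like Ebf2 counts 83.3% came from 1 cell.

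In AEC the old over young ratio of Ebf1 was −0.021 (−0.055 to 0.012), not separable from 0 by counting error, but the ranges gave −0.89, 0.49 and −0.043. Ebf3 was lower in old cells at −0.92, with −1.38, −0.47 and −0.55. Foxc1 stood at 0.88, with −1.22, 1.01 and 2.44, Foxc2 at 0.58, with 4.05, 0.0996 and −3.52, and Ebf2 at −0.063, with 1.97, −0.48 and −1.75. Only Ebf3 of these 5 had the same sign as its pooled value in all 3 ranges. Ebf4 stood at −1.77 with the pseudocount, while its CPM without it was 15.4-fold lower, from 108 counts in young and 7 in old AEC, with 49.1% of the young counts in 1 cell. By AEC-like clusters it stood at −0.18, which ends that 2-fold call, and in range 2 at −0.91. Of the old AEC-like counts 88.1% came from 1 cell, which was sorted in the SEC gate. Ebf2 turned to 1.39 by AEC-like clusters, where 1 cell held 96.8% of the old counts. Of 14042 genes past the filter 21.1% differed by 2-fold or more, and of the 6 factors Ebf4 did. Genes of bone were higher in the old gate, since of 9 osteoblast genes 6 were at least 2-fold higher and 1, Ibsp, lower, with a median of 1.48 against −0.032 over all genes. Col1a1, a collagen of bone matrix, stood at 3.25, with 4.73 CPM in young and 53.4 CPM in old AEC, Sp7 at 3.05 and Runx2 at 1.53. The 8 osteolineage markers, which share these 3 genes, summed to 601 CPM in young and 794 CPM in old AEC, with 3 at 10 CPM or more at each age, led by Alpl, and Dmp1 at 0 in old cells. Of 9 niche factor genes none was higher and 3 were lower, with a median of −0.79, and the lower ones were Lepr, Vcam1 and Adipoq. Of 8 adipogenic genes 3 were lower, with a median of −0.27. Of 12 endothelial genes linked to Foxc factors 1, Itgb3, was higher and 2, Cxcr4 and Prox1, were lower, with a median of 0.24. The part of the bone and niche genes in the ratios of Foxc1, Foxc2 and Ebf3 was not tested.

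The levels followed the authors' clusters of the cells, which are described here without a test because Ebf3 guided the mesenchymal and Ebf1 and Ebf2 the endothelial clustering. Levels are given for the 19 clusters with at least 5 cells, and M10, M11, M13 and M14 were smaller and left out. M1, with 86 cells, held Ebf3 at 1239 CPM, Ebf1 at 732 CPM and Foxc1 at 318 CPM. M2, with 50 cells, held 773, 688 and 278 CPM. Ebf1 was highest in M7, a cluster of 9 young and 6 old MSC-S, at 854 CPM with a count in 15 of 15 cells. Foxc1 with little of the EBF genes marked M3, a cluster of 15 young and 1 old OPr. There Foxc1 stood at 249.99 CPM with a count in 16 of 16 cells and Foxc2 at 35.2 CPM in 12 of 16. Ebf1 was 1.21 CPM, Ebf3 1.40 CPM and Ebf2 0.186 CPM, and Ebf4 was 3.44 CPM, all from 1 cell. The other OPr-like clusters had more Ebf1, with 159 CPM in M4 and 124 CPM in M5. Ebf2 was found in every cell of 4 clusters, at 158 CPM in M6, 188 CPM in M7, 254 CPM in M9 and 159.8 CPM in E2, the pericyte cluster. Foxc1 was 0.753 CPM in M6 and Foxc2 had no count in M6 and M8. M15 had Foxc1 at 163 CPM in 17 of 17 cells. Its Ebf1 level of 63.7 CPM came to 82.99% from 1 cell, and the median cell held 1.93 CPM. M16 had Foxc2 at 63.6 CPM. Among endothelial clusters Ebf1 was 405 CPM in E3 and 481 CPM in E4, the AEC-like clusters, and 386 CPM in E5. It was 23.7 CPM in E7, where 23 of 105 cells had a count.

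**Figure D2:**
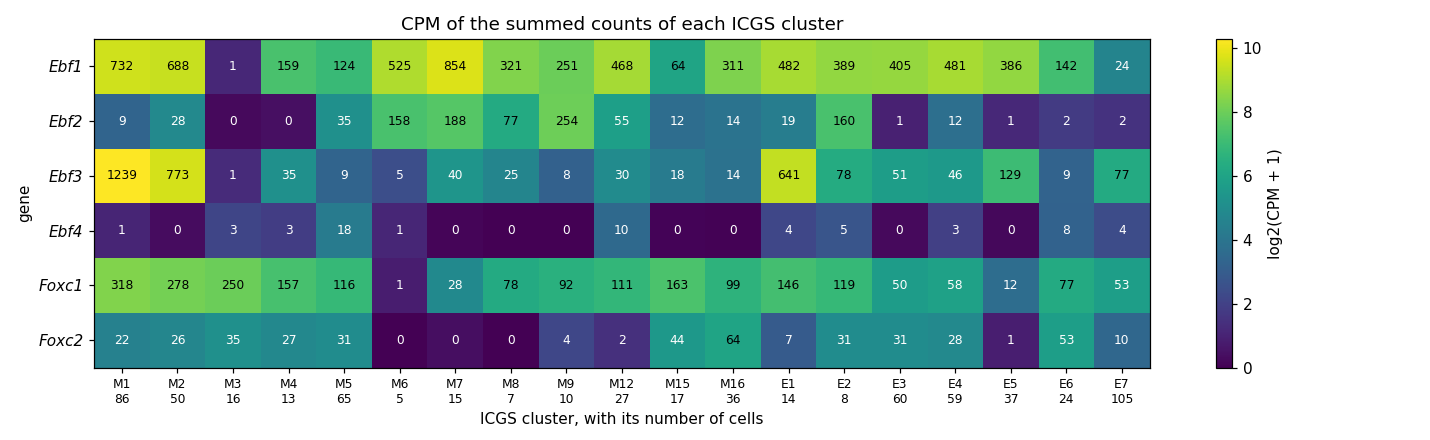
Level of the 6 genes (vertical axis) in the 19 clusters of the authors with at least 5 cells (horizontal axis, with the number of cells), with the CPM of the summed counts printed in each field and log2(CPM + 1) as colour. Ebf3 peaks in M1 at 1239 CPM, Foxc1 stands at 249.99 CPM in M3 where Ebf1 and Ebf3 are at 1.21 and 1.40 CPM, and Ebf1 stands at 481 CPM in E4 and 23.7 CPM in E7.

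Most MSC-L expressed Ebf1, Ebf3 and Foxc1 together. At least 1 count of all 3 was present in 50 of 53 young cells (94.3%, exact Clopper-Pearson interval 84.3 to 98.8%) and 53 of 58 old cells (91.4%, 81.02 to 97.1%). In MSC-S the share was 24 of 59 at each age (40.7%, 28.1 to 54.3%). After thinning every cell to 100000 counts, the shares were 90.6% and 91.1% in young and old MSC-L and 27.1% and 25.4% in MSC-S, so MSC-L lay above MSC-S at equal depth too. OPr had 10 of 44 young and 15 of 29 old cells with all 3, and mOPr 9 of 26 and 16 of 26. AEC had 24 of 84 and 33 of 82, and SEC 11 of 70 and 14 of 71. With a minimum of 10 CPM for each gene the shares were 88.7% and 86.2% in MSC-L and 20.3% and 15.3% in MSC-S. At 1 count 3 of 16 cells of M3 and 7 of 105 cells of E7 (6.67%) held all 3. At 10 CPM no cell of M3 and none of the 105 cells of E7 held all 3, which allows shares of up to 20.6% and 3.45% by the exact binomial limit, for counting error alone. Ebf3 and Ebf1 guided these clusterings, so the shares within clusters are a description.

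**Figure D3:**
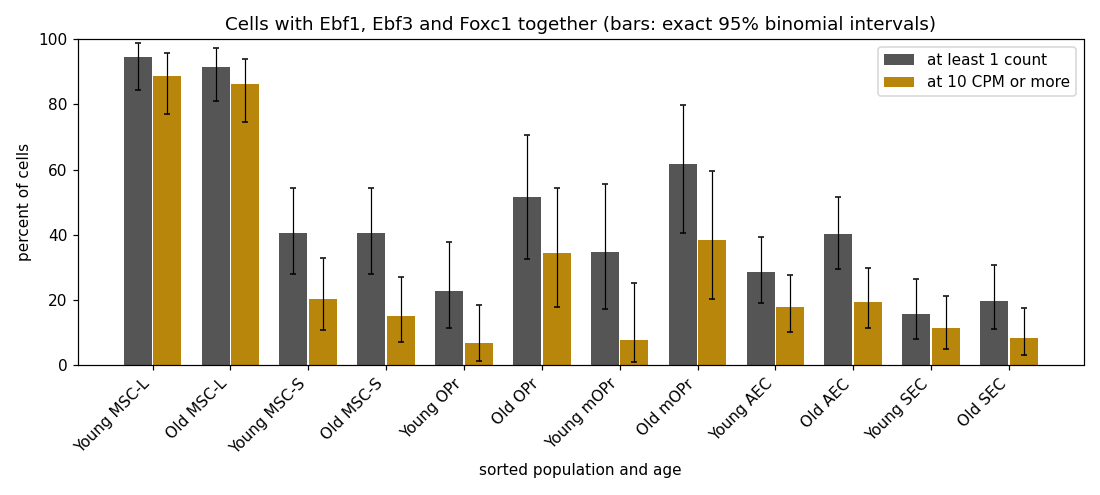
Percent of cells (vertical axis) in which Ebf1, Ebf3 and Foxc1 were found together in the 12 groups (horizontal axis), with at least 1 count of each in grey, at least 10 CPM of each in gold, and exact binomial 95% intervals as error bars. Young and old MSC-L reach 94.3% and 91.4% at 1 count, and MSC-S 40.7% at each age.

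Detection of the factors in pairs was counted within each lineage. Among cells of the mesenchymal gates Ebf3 was present in 72.3% of those with Ebf1 (222 cells) and 36.2% of those without it (17 of 47 cells), and Foxc1 in 86.0% (264 cells) and 76.6% (36 of 47 cells). Among endothelial cells Ebf3 was present in 130 of 209 cells with Ebf1 (62.2%) and 48 of 98 without it (48.98%). Foxc1 was present in 122 of 209 (58.4%) and 60 of 98 (61.2%). Each of the 11 young and 16 old MSC-S with a Foxc2 count also had a Foxc1 count, which 43 and 49 of the 59 cells had at all. In young mOPr 5 of 9 cells with Foxc2 also had Foxc1, against 20 of 26 cells in all. Within the MSC-L gate Spearman's rho between levels in cells was −0.024 for Ebf1 and Ebf3, 0.064 for Ebf1 and Foxc1 and −0.0023 for Ebf3 and Foxc1 over the 53 young cells. Over the 58 old cells it was 0.19, 0.064 and −0.11. Over the 136 cells of M1 and M2, which a clustering guided by Ebf3 had set apart, it was 0.087, 0.028 and 0.0047, and −0.25 for Ebf3 and Foxc1 in the 50 cells of M2. Across the 26 old mOPr, in the same order of pairs, rho was 0.73, 0.41 and 0.51, but across the 26 young mOPr −0.31, −0.42 and 0.31. Across the 29 old OPr it was 0.70, 0.65 and 0.71, and across the 44 young OPr 0.37, 0.0057 and 0.17. These cells share library-number ranges and vary in depth, and the old osteoprogenitor gates mix M1 and M2 cells with others.

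Over the 12 groups, the genes whose log2(CPM + 1) was most like that of each factor were found among 11896 genes with at least 1000 counts and a count in at least 25% of the cells of a group. For Ebf3 they were Vezt, Slco1a5 and Speg, with Pearson r of 0.976, 0.973 and 0.966 over the groups and 0.675, 0.844 and 0.527 over the 19 clusters with at least 5 cells. For Foxc1 they were Echdc2, the osteogenic transcription factor gene Runx2 and its neighbour Runx2os2, with 0.952, 0.947 and 0.933 over the groups and 0.135, 0.551 and 0.501 over the clusters. Ebf1 was most like the laminin gene Lama4, 9330154K18Rik and the cadherin gene Fat4, with 0.905, 0.890 and 0.890 over the groups and 0.682, 0.145 and 0.679 over the clusters. Ebf2 was most like AI607873, the chemokine gene Cxcl1 and Add3, with 0.907, 0.877 and 0.848 over the groups and 0.718, 0.766 and 0.633 over the clusters. The 3 genes of Foxc2, Fbxo25, Tmem60 and Arf1, reached 0.866, 0.837 and 0.814 over the groups but −0.0564, −0.685 and 0.266 over the clusters. Ebf4, itself below that filter, was most like Celf4, Chchd4 and Wwp1 at 0.897, 0.853 and 0.849 over the groups, but 0.420, 0.202 and −0.0012 over the clusters. Between the factors r was 0.596 for Ebf3 and Foxc1 over the groups and 0.292 over the clusters, 0.337 and 0.519 for Ebf1 and Ebf3, and 0.166 and 0.619 for Foxc1 and Foxc2. Also above 0 in both settings were Ebf1 and Ebf2 at 0.326 and 0.514, and Ebf4 and Foxc2 at 0.320 and 0.265. Ebf4 and Foxc1 stood at 0.054 and 0.180. The remaining pairs had r below 0 or of opposite signs. Among them were Ebf2 and Foxc2, with 0.524 over the groups and −0.489 over the clusters, and Ebf1 and Foxc1, with 0.258 and −0.252. Ebf1 and Ebf4 had −0.473 and −0.268, and Ebf2 and Ebf3 −0.425 and −0.0453. Over all 15 pairs r ran from −0.473 to 0.596 over the groups and from −0.489 to 0.619 over the clusters. The 12 points share library-number ranges between populations, and both ages of a gate resemble each other.

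Promoter sequences were available from RefSeq (GRCm38.p6) for 4 of the 6 genes, Ebf1, Ebf3, Ebf4 and Foxc1, and not used here for Ebf2 and Foxc2. Of the 3 genes highest in MSC-L, those of Ebf3 and Foxc1 are shown. The windows of Ebf1 were 40% and 52% G and C, the first of them within annotated exons, and that of Ebf4 was 75.2%. The window of Ebf3, chr7:137314446-137314695 on the minus strand, lies just before the first exon and is 80% G and C, with 43 CpG dinucleotides. The window of Foxc1, chr13:31806396-31806632 on the plus strand, holds the 237 bases before its single exon and is 72.6% G and C, with 29 CpG dinucleotides. The median over all promoters in the RefSeq table was 52.4%.
Ebf3: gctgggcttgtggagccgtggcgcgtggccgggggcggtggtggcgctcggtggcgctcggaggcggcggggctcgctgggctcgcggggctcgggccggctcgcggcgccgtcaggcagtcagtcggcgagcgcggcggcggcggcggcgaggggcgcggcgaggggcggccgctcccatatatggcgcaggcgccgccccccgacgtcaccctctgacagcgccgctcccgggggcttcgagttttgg
Foxc1: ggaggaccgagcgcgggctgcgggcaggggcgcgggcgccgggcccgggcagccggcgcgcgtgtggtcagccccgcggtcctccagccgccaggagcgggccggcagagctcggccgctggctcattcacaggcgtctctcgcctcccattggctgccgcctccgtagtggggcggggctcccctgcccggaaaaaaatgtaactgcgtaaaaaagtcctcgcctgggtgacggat
The palindrome bound by EBF proteins, TCCC and GGGA with any 2 bases between them, occurs in 0.787% of 32536 promoters, and the forkhead core TAAACA, on either strand, in 12.0%. Neither string of letters was found in the windows of the 4 genes.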

How the data were processed

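Single cells were sorted into plates and their full-length cDNA sequenced. Per the labels the authors aligned reads with GSNAP to GRCm38.p4 and counted them with HTSeq, without strand; the authors deposited raw counts per gene and cell. Of 46078 table rows, 270 repeated a symbol and were added to the counts of that symbol. After 37 mitochondrial genes were left out, 45771 nuclear genes were used. All cells were kept and doublets were not called. Cells with at least 7 of 15 hematopoietic markers at 10 CPM (9 cells), or with 7 markers of both lineages (16 cells), were left out as alternatives only. Counts were summed per age and sorted population, scaled to CPM and compared as log2 ratios with a pseudocount of 1 CPM; genes needed at least 100 counts in at least 5 cells for a 2-fold count. Intervals were exact Poisson, binomial and conditional binomial at 95%. Named genes were the 6 factors, the genes of the lists and, per factor, the 3 genes of highest Pearson correlation. The members and lists were chosen with earlier results of these data known. Alternatives were the mean over cells, size factors, a pseudocount of 0.1 CPM, single library-number ranges, leaving out cells, identity groups of clusters, no filter on low genes, thinning to 100000 counts (7 shallower cells left out) and 10 CPM as detection. Of 12 B lineage markers, no cell held more than 2 at 10 CPM. The code, tested on simulated data, ran under Python 3.11.15 with scipy 1.17.1, pandas 2.3.3, matplotlib 3.10.9 and numpy 2.4.6.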

Additional observations from a re-analysis of the deposited data

Results flagged for a closer look

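Some age ratios had opposite signs in a pair of populations, in every library-number range of each. The values below are the old over young log2 ratio in the first population minus that in the second, and none of these differences was tested. For Ebf1 the difference was −1.53 between MSC-S and OPr and −1.88 between MSC-S and mOPr. For Ebf3 it was −2.17 between MSC-S and OPr, −3.66 between MSC-S and mOPr, 2.26 between OPr and AEC and 3.76 between mOPr and AEC. For Ebf2 it was −5.51 between MSC-L and OPr, and for Ebf4 3.22 between mOPr and AEC. For Foxc1 it was −1.05 between MSC-L and MSC-S and −0.64 between MSC-L and mOPr. For Foxc2 it was 2.46 between MSC-S and OPr and −2.06 between OPr and mOPr. Without the top cells the age ratio of Ebf2 in OPr was 1.96, since 1 cell held 57.3% of its old counts. By clusters in place of gates the age ratio of Foxc1 was 0.099 in MSC-L-like and 0.18 in MSC-S-like cells, both of 1 sign. The osteoprogenitor values rest on gates in which M1 and M2 cells made up 10 of 29 old OPr and 14 of 26 old mOPr. Without these cells the age ratio of Ebf3 was −1.99 in OPr and −2.67 in mOPr, but Ebf3 guided the clustering that defined M1 and M2, so these values are a description and decide nothing about its opposite signs. That of Ebf1 was −0.51 in mOPr, the sign of MSC-S, and 1.43 in OPr, still opposite to MSC-S, with 62.9% of the remaining old counts in 1 cell. That of Foxc1 in mOPr was −1.21, the sign of MSC-L. The age ratio of Foxc2 turned to 0.75 among OPr-like clusters, where 1 cell of the mOPr gate held 80.2% of the old counts. In mOPr it was 0.28 without the top cells. The age ratio of Ebf4 in AEC was −0.18 among AEC-like clusters, where 1 cell of the SEC gate held 88.1% of the old counts.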

How the results depend on the processing

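No paired analysis was possible because the labels name no mouse and no result comes from a test; ratios within each library-number range, which holds both ages of every population in it, are given in place of one. Depth limits what can be said of Ebf4, which had 1172 counts over all cells. Of 282 alternative values for age ratios 249 had the sign of the reported value, 141 moved by less than the counting interval, 135 by more and 6 reversed a 2-fold difference. Of 186 for population ratios 171 had the same sign, 92 stayed within the interval, 90 did not and 4 reversed. For cluster levels 66 of 176 and for shares of cells 31 of 51 stayed within it. The cause was not tested for any of these.

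Reversed values were, for old over young, Ebf3 in OPr −1.62 by identity group and −1.99 without M1 and M2, Ebf1 and Ebf3 in mOPr −0.51 and −2.67 without M1 and M2, Ebf2 in mOPr −1.13 in range 2, and Ebf2 in SEC −0.60 by identity group. For MSC-L over MSC-S they were Ebf4 0.040 (young) and Foxc2 1.69 (old), both in range 1. For old AEC over SEC they were Ebf4 1.56 and Foxc2 1.06 by identity group. Single cells held 83.3% of the young SEC-like Ebf2 counts and 88.1% of the old AEC-like Ebf4 counts.

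For young MSC-L over MSC-S, Ebf1, Ebf3 and Foxc1 stood at 0.19, 4.97 and 2.10 with size factors, 0.27, 4.51 and 2.97 in range 1, 0.64, 5.88 and 2.21 in range 2, 0.58, 5.52 and 2.48 without the top cell, and 0.98, 5.58 and 1.62 by identity group. The mean over cells gave 0.60 and 5.37 for Ebf1 and Ebf3.

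For age in MSC-L the same genes stood at −0.0096, −0.032 and −0.46 as mean over cells, −0.052, 0.21 and −0.48 in range 1, 0.097, −0.091 and −0.23 in range 2, and −0.20, −0.26 and 0.099 by identity group.

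For age in OPr, Ebf1 and Ebf3 stood at 1.36 and 1.48 as mean over cells, 0.82 and 1.18 with size factors, 0.63 and 0.81 in range 1, 2.47 and 5.33 in range 2, 1.40 and 1.76 without blood-marker cells, and 1.30 and 1.85 without the top cell. Ebf1 was 0.82 by identity group and 1.43 without M1 and M2.

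For age in mOPr, Ebf1 stood at 1.21 with size factors, 1.53 in range 1 and 1.58 without the top cell. Ebf3 stood at 2.56 as mean over cells, 2.56 in range 1, 3.48 in range 2 and 3.07 without the top cell. The share of young MSC-L with Ebf1, Ebf3 and Foxc1 was 100% of 20 cells in range 1. With no filter on low genes, 5168 in place of 3338 genes differed 2-fold by age in MSC-L, 8332 in place of 5002 in mOPr and 4109 in place of 2683 in SEC; the other 13 such alternatives stayed within 1.5 times.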
